A study of Mus musculus with 8 samples.

Results

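The Hox genes of the 4 mammalian Hox clusters were examined in Zeb1-/- LSK cells, the lineage-negative, SCA-1+, C-KIT+ bone marrow compartment that holds hematopoietic stem and progenitor cells. Members were the rows whose symbol is Hoxa, Hoxb, Hoxc or Hoxd followed by a number, which gave 39 genes in 40 rows (Hoxd4 has 2 rows) of the 54532 rows in the table. RNA-Seq had been performed on EpCAM+ (4 samples) and EpCAM- (4 samples) fractions of Zeb1-/- LSK cells, sorted from bone marrow of C57BL/6 mice aged 8 to 12 weeks, taken 14 days after the final dose of pIpC. All 8 libraries carry the same deletion, made by Mx1-Cre in animals with floxed Zeb1. Mx1-Cre acts in every interferon-responsive cell, so the deletion is not restricted to blood. No library from control mice enters the comparison, which therefore addresses how cells that carry the EpCAM surface protein differ from cells that lack it within the deleted compartment. Reads counted on genes ranged from 15225714 to 17073546 in EpCAM+ libraries (median 16101165) and from 14114491 to 15929923 in EpCAM- libraries (median 14717605). Of these, 2333 to 3058 reads per EpCAM+ library and 1161 to 1855 per EpCAM- library fell on Hox genes.

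Hox genes encode homeodomain transcription factors that set positional identity along the body axis of the embryo. In the blood system, genes of the Hoxa and Hoxb clusters are most active in stem and early progenitor cells and are switched off as cells mature. Hoxa9 sustains self-renewal of hematopoietic progenitors and drives leukemia together with its partner Meis1. Hox proteins reach their DNA sites through PBX and MEIS cofactors, and trithorax and polycomb complexes keep the clusters open or closed.

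Hox genes resemble each other most in the homeobox, which codes for the DNA-binding domain, so reads of one gene could be assigned to another. The longest run of bases that a gene shared exactly with any other Hox gene was 21 for Hoxa10, 28 for Hoxb5, 31 for Hoxa9, 32 for Hoxa5, 36 for Hoxa3 and 47 for Hoxa7. Each of these runs was shorter than the 150-base reads.

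Transcripts of the Hox clusters in LSK cells came mostly from Hoxa7, Hoxa9 and Hoxa10. These 3 genes held between 90.3% and 94.4% of all Hox reads in each library. Of the 40 rows, 20 (19 genes) had no read in any library, among them every gene of the Hoxd cluster. A count of 0 allows up to 3 reads, or 0.168 to 0.222 normalised CPM (reads scaled to a common library size), in a library. The Hoxa cluster had reads on 9 of its 11 genes, Hoxb on 7 of 10 and Hoxc on 4 of 9. Hoxa11 and Hoxa13, at the posterior end of the Hoxa cluster, were at 0 in each of the 8 libraries, next to the well expressed Hoxa9 and Hoxa10.

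Per kilobase of the length column in the table, Hoxa7 had the highest mean level in both fractions, with 19.0 ± 1.62 CPM per kb in EpCAM+ libraries and 16.2 ± 2.71 in EpCAM- libraries (SD, n = 4). Hoxa9 came next with 13.7 ± 1.57 and 8.41 ± 2.06 CPM per kb. Hoxa10 followed in EpCAM+ libraries with 5.37 ± 0.736 CPM per kb, above Hoxa5 with 3.32 ± 0.490. The ranges of these 4 genes did not overlap in EpCAM+ libraries. In EpCAM- libraries the levels of Hoxa5 (1.92 ± 0.783 CPM per kb) and Hoxa10 (1.77 ± 0.765) overlapped. Hoxa6 (1.05 ± 0.349 CPM per kb in EpCAM+ and 0.495 ± 0.267 in EpCAM-) and Hoxb5 (0.690 ± 0.131 and 0.200 ± 0.196) came after them in EpCAM+ libraries and overlapped each other. This order depends on the gene length used. By the deposited FPKM, which rest on other lengths, Hoxa9 averaged 52.5 and Hoxa7 averaged 46.0 in EpCAM+ libraries, while Hoxa7 stayed above Hoxa9 in EpCAM- libraries (37.1 against 30.4 FPKM). Hoxa3, below Hoxa6 and Hoxb5 per kilobase in EpCAM+ libraries, was above them by FPKM (1.24 against 1.08 and 0.843).

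**Figure D1:**
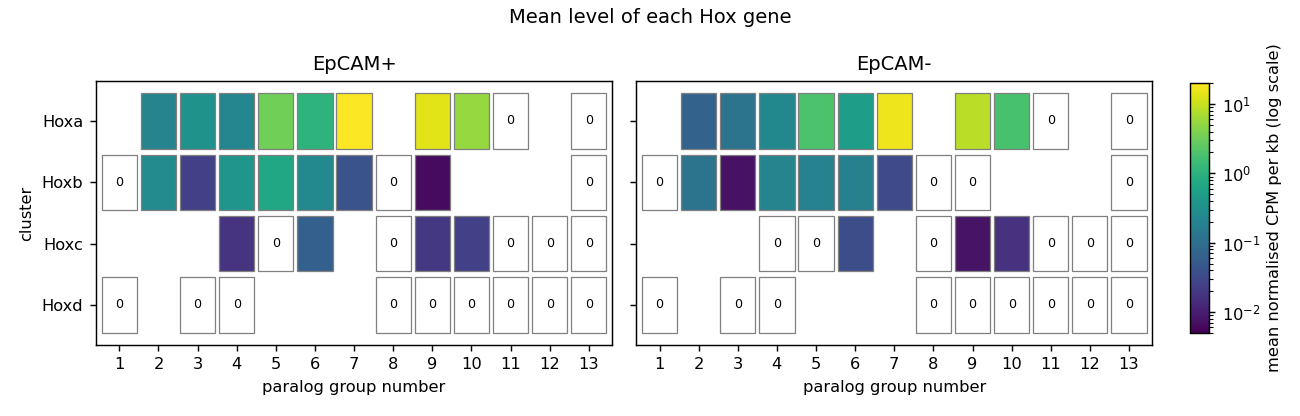
Mean normalised CPM per kilobase (color, log scale) of each Hox gene in the 4 EpCAM+ and the 4 EpCAM- libraries, with clusters in rows and paralog group numbers in columns; a 0 marks a gene without a read in that fraction, and an empty place has no gene or is not shown. The brightest tiles are Hoxa7 and Hoxa9 in both panels, Hoxa10 is dimmer in EpCAM- cells, and the Hoxd row is at 0 in both.

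Hoxa3, Hoxa5, Hoxa9, Hoxa10 and Hoxb5 were higher in EpCAM+ than in EpCAM- cells, and no tested Hox gene was lower. The fit (edgeR's quasi-likelihood test, Benjamini-Hochberg adjustment over all genes, threshold 0.05) tested 6 Hox genes. It called 5, against a background of 42.6% of the 13560 tested genes called in either direction and 21.8% called higher in EpCAM+ cells (20.8% lower). All 6 fold changes were positive, so no Hox gene was lower at an unadjusted p under 0.05 or with DESeq2 either. The same 5 genes were called with DESeq2, which called 36.2% of the genes to which it gave an adjusted p, and with the replicate number as a block, which called 50.3%. In fits without 1 library, 33.9% to 43.4% of genes were called. Hoxa3 and Hoxb5 had passed the filter on low counts, a CPM of 0.652 in at least 4 libraries, through their EpCAM+ libraries, so the 5 of 6 is not read as a share of Hox genes. Of the 4 genes above that CPM in all 8 libraries (Hoxa5, Hoxa7, Hoxa9 and Hoxa10), 3 were called, and the same 3 had every EpCAM+ value above every EpCAM- value. Over all tested genes, 20.1% were without overlap in that direction and 40.1% in either direction. Fewer cells that express a gene and less of its RNA per cell cannot be told apart in these bulk libraries.

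Hoxa10, a posterior gene that promotes progenitor expansion, had the largest difference among the Hox genes above the filter in every library. It lies on the minus strand of chromosome 6 at chr6:52231197-52240854 (GRCm38). The 4 EpCAM+ libraries held 20.5, 17.4, 17.9 and 14.6 CPM and the 4 EpCAM- libraries 9.30, 5.18, 5.26 and 3.38 CPM, in the order of replicates 1 to 4. The lowest EpCAM+ library was above the highest EpCAM- library, which was replicate 1. The mean was 17.6 ± 2.41 CPM against 5.78 ± 2.50 (SD, n = 4), a fold of 3.02 in the fit (log2 fold change 1.60, SE 0.26, adjusted p = 0.0011 by edgeR). Hoxa10 was called with each of the 8 libraries left out in turn, with log2 fold changes from 1.40 to 1.92.

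Hoxa9, the best studied Hox regulator of hematopoietic progenitors, was 1.63-fold higher in EpCAM+ cells. It lies beside Hoxa10 on the same strand, at chr6:52223100-52231089. It measured 75.4, 78.6, 86.8 and 65.6 CPM in EpCAM+ replicates 1 to 4. The EpCAM- replicates measured 49.3, 62.1, 40.3 and 36.0 CPM. The groups did not overlap, although EpCAM- replicate 2 came close to EpCAM+ replicate 4. The means were 76.6 ± 8.78 and 46.9 ± 11.5 CPM (log2 fold change 0.71, SE 0.16, adjusted p = 0.0054 by edgeR), and the call held with each library left out, between 0.59 and 0.86 on the log2 scale.

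Hoxa7 did not pass the test. Its EpCAM+ libraries held 50.1, 58.8, 50.9 and 58.4 CPM and its EpCAM- libraries 46.5, 57.6, 41.8 and 40.4 CPM. EpCAM- replicate 2 lay inside the EpCAM+ range, while the other 3 lay below it. The log2 fold change was 0.23 (SE 0.12, adjusted p = 0.140 by edgeR), and without EpCAM- replicate 2 it was 0.34 with an adjusted p of 0.0201. No other fit without 1 library called Hoxa7 (log2 fold changes from 0.16 to 0.26, adjusted p from 0.141 to 0.317 by edgeR). The Hoxa7 row shares 20.4% of its exon bases with the antisense row Hoxaas3, and the counting strand is not given in the sources used here.

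Hoxa5, an anterior-to-central gene of the cluster with roles in erythroid and myeloid choice, measured 6.73, 5.61, 7.26 and 5.32 CPM in EpCAM+ libraries. In EpCAM- libraries it measured 4.99, 4.74, 2.46 and 2.21 CPM. The fractions did not overlap, and EpCAM- replicates 1 and 2 sat close to the EpCAM+ range. The means of 6.23 ± 0.920 and 3.60 ± 1.47 CPM gave a log2 fold change of 0.79 (SE 0.28, adjusted p = 0.0441 by edgeR). This call was close to the threshold. It was lost when any one EpCAM+ replicate, or EpCAM- replicate 3 or 4, was left out (adjusted p from 0.0561 to 0.115), and it was lost when every gene with a read was tested (adjusted p = 0.0648).

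Hoxa3, an anterior gene, was counted with 17, 44, 39 and 32 reads in EpCAM+ libraries and 18, 10, 5 and 8 reads in EpCAM- libraries. In Hoxa3, 3 of the 4 EpCAM+ libraries lay above all EpCAM- libraries, and EpCAM+ replicate 1 did not. On the CPM scale the means were 1.97 ± 0.597 and 0.698 ± 0.328 (log2 fold change 1.48, SE 0.39, adjusted p = 0.0122 by edgeR), called with each library left out. The Hoxa3 row is long and shares 27.1% of its exon bases with other rows, among them Hoxaas2 and Hoxaas3, so part of its reads may belong to them.

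Hoxb5, a gene whose expression marks long-term stem cells in mice, was the only Hoxb gene above the filter. Its read counts were 36, 37, 29 and 25 in EpCAM+ libraries and 21, 0, 7 and 6 in EpCAM- libraries. All EpCAM+ libraries were above all EpCAM- libraries, but EpCAM- replicate 1 had more reads than the other 3 together. The means were 1.92 ± 0.364 and 0.557 ± 0.547 CPM (log2 fold change 1.73, SE 0.60, adjusted p = 0.0393 by edgeR). The estimate rested on single EpCAM- libraries, at 2.60 without replicate 1 (adjusted p = 0.0079) and 1.33 without replicate 2 (adjusted p = 0.0341). The call was lost when any one EpCAM+ replicate, or EpCAM- replicate 3 or 4, was left out (adjusted p from 0.0606 to 0.0988), and when every gene with a read was tested (adjusted p = 0.0520).

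**Figure D2:**
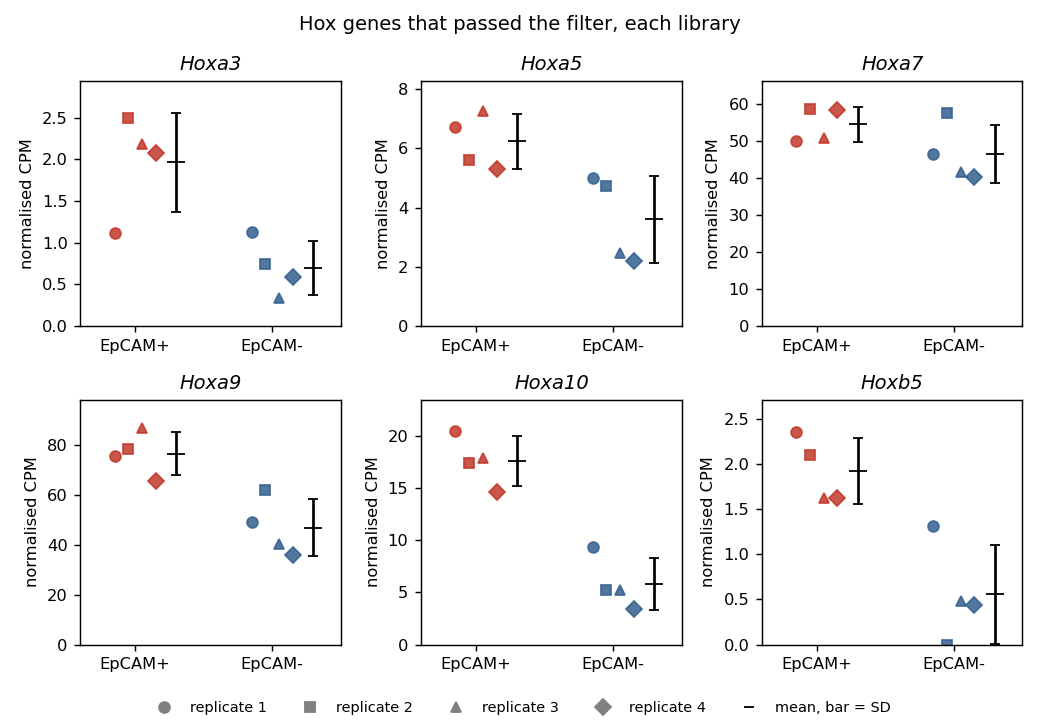
Normalised CPM (y axis, from 0) of the 6 Hox genes that passed the filter, 1 point per library with the replicate number as the symbol, beside the mean and SD of each fraction (n = 4). Hoxa9 and Hoxa10 are higher in every EpCAM+ library than in any EpCAM- library, while the Hoxa7 values overlap.

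The other 14 Hox rows with reads stayed below the filter and were not tested in this fit. By mean CPM, 12 of them were higher in EpCAM+ libraries and 2 in EpCAM- libraries, and 8 had at most 5 reads in every library. When every gene with a read was tested, the median log2 fold change of all genes was 0.14, against 0.02 with the filter. The share of such directions over all low-count rows was not counted, so the 12 of 14 is not read as a result about Hox genes. Hoxa2 was the only one of the 14 whose fractions did not overlap, with 8, 8, 5 and 4 reads in EpCAM+ libraries and 3, 1, 0 and 3 in EpCAM- libraries. Hoxa4 had 4, 4, 9 and 7 reads against 3, 7, 7 and 5, with a mean of 0.361 CPM in EpCAM+ and 0.388 CPM in EpCAM- libraries. Hoxa6 had 17, 22, 12 and 10 reads against 9, 9, 2 and 5. Its lowest EpCAM+ library was just below its highest EpCAM- library in CPM (0.648 against 0.666).

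Hoxb4, which expands stem cells when overexpressed, had 18, 19, 19 and 9 reads in EpCAM+ libraries and 7, 9, 7 and 8 reads in EpCAM- libraries. EpCAM+ replicate 4 alone fell among the EpCAM- values, and without that library Hoxb4 entered the test and was called (log2 fold change 1.02, SE 0.33, adjusted p = 0.0380 by edgeR). In 4 other fits, each without 1 EpCAM- library, Hoxb4 was also tested and was not called (adjusted p from 0.0729 to 0.141). Among its EpCAM- libraries 0 were above the filter's CPM of 0.652, so Hoxb4 entered these fits through its EpCAM+ libraries. Hoxb2 had 26, 9, 14 and 9 reads against 19, 2, 2 and 2, with EpCAM- replicate 1 far above the rest of its fraction. Hoxa6 and Hoxb2 were also tested in some fits without 1 library, and neither was called in any. Their adjusted p by edgeR was 0.0635 to 0.176 for Hoxa6 and 0.213 to 0.443 for Hoxb2. Hoxb6 had 4, 9, 10 and 10 reads against 2, 3, 10 and 5. No difference in Hoxb3, Hoxb7, Hoxb9 or the Hoxc genes was detectable at this depth, since none of them had more than 5 reads in a library.

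Summed over the cluster, Hoxa genes held 159 ± 8.89 CPM in EpCAM+ libraries and 105 ± 21.7 CPM in EpCAM- libraries, a ratio of 1.52. The Hoxb cluster held 4.47 ± 0.914 and 1.93 ± 0.957 CPM, a ratio of 2.31. With the noncoding and other rows inside each cluster added, the ratios were 1.51 and 2.50. These sums are descriptions without a test.

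The Hox genes did not differ to one degree. Since 4 Hoxa genes had at least 30 reads in every library, the 6 ratios among them could be compared inside each library, which needs no scaling between libraries. Hoxa10 rose relative to each of the other 3. The log2 ratio of Hoxa10 to Hoxa7 was higher by 1.45 in EpCAM+ libraries, that to Hoxa9 by 0.96 and that to Hoxa5 by 0.81, while the ratio of Hoxa9 to Hoxa7 was higher by 0.49. For each of these 4 ratios all 4 EpCAM+ libraries were above all EpCAM- libraries, with an exact permutation p of 0.0286 (two-sided), the smallest that 4 against 4 allows, and 0.0429 after Benjamini-Hochberg adjustment over the 6. The test took the libraries as unpaired, although same-numbered libraries are paired by their values. The 6 ratios come from only 4 genes, so they are not separate pieces of evidence. The ratio of Hoxa7 to Hoxa5 was lower by 0.64 in EpCAM+ libraries with overlap (exact permutation p = 0.114, adjusted 0.137), although it was lower in EpCAM+ cells in each of the 4 same-numbered pairs, and that of Hoxa9 to Hoxa5 differed by -0.15 (exact permutation p = 0.457, adjusted 0.457).

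The shares of the Hox reads are given as a description of the same counts. Hoxa10 took 12.7%, 10.2%, 10.5% and 9.64% of the Hox reads in EpCAM+ replicates 1 to 4. Its share was 8.03%, 3.90%, 5.68% and 3.96% in EpCAM- replicates 1 to 4. Hoxa7 went the other way, with 33.5% ± 3.96 of the Hox reads in EpCAM+ libraries and 44.0% ± 3.01 in EpCAM- libraries (SD, n = 4). The share of Hoxa9 was 46.8% ± 3.06 and 43.8% ± 2.08.

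**Figure D3:**
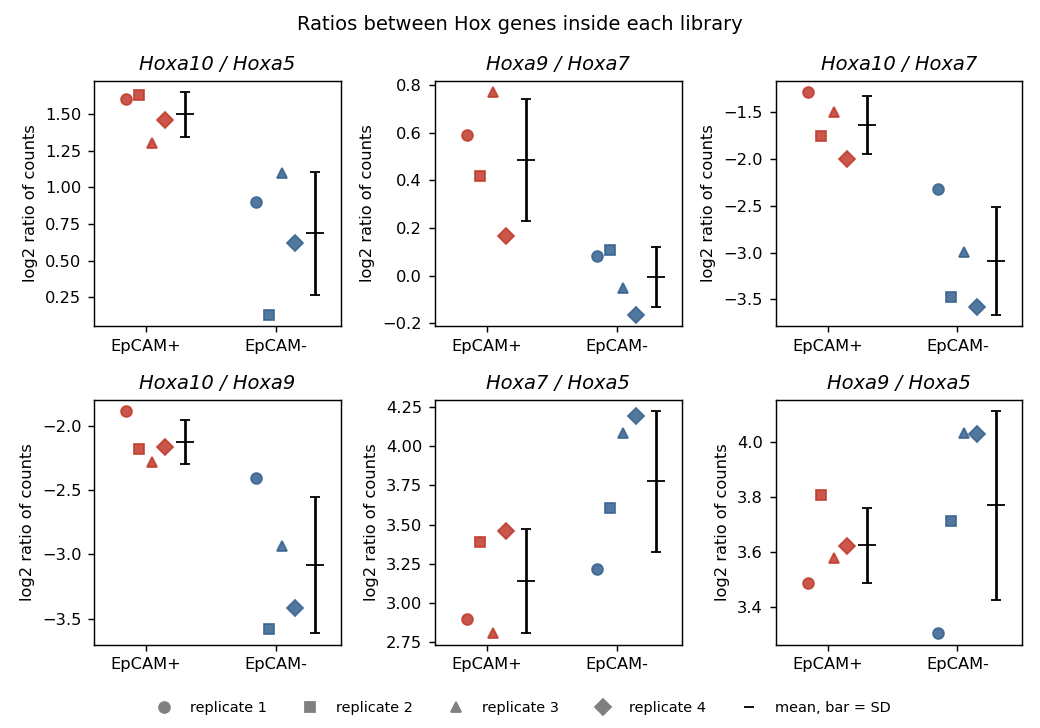
Log2 ratio of the read counts of 2 Hox genes inside each library (y axis, each panel on its own range), 1 point per library, beside the mean and SD of each fraction (n = 4). The ratios with Hoxa10 on top, and Hoxa9 over Hoxa7, are higher in all 4 EpCAM+ libraries than in any EpCAM- library, and the other 2 ratios overlap.

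Promoters of the Hox genes were searched for letters bound by ZEB1 and by the Hox partners. Zeb1 was deleted in both fractions, and a part of these letters in the differences between the fractions was not tested. RefSeq starts on GRCm38.p6 were given for 22 of the 39 Hox symbols, at 24 positions. These include Hoxd genes, which had no reads, and none was given for Hoxb5. The 250 bases before the Hoxa9 start and before one of the 2 Hoxa10 starts are printed 5′ to 3′ on the minus strand, and neither overlaps an annotated exon. No letters are in capitals because none of the searched motifs occurs in them.
Hoxa9, chr6:52227371-52227620: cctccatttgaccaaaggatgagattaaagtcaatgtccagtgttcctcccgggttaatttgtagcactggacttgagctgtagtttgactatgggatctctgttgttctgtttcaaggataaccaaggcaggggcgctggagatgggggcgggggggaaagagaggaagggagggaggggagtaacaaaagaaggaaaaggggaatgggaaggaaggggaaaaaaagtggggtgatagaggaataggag
Hoxa10, chr6:52234940-52235189: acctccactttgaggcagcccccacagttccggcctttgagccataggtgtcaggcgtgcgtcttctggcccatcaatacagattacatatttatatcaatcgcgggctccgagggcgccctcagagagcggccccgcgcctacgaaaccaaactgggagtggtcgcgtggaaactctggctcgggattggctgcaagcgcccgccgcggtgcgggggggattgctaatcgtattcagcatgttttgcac
The E-box CACCTG (or CAGGTG on the other strand), a form of ZEB1 sites, occurred in 0 of the 24 Hox windows and in 17.2% of all 32851 promoter windows of this length. The shorter letters CACCT or AGGTG were not searched, and AGGTG occurs in the printed Hoxa10 window. The MEIS letters TGACAG (or CTGTCA) occurred in 2 Hox windows, those of Hoxa2 and Hoxa3, and in 15.9% of all windows. The PBX-HOX letters TGATTNAT (or ATNAATCA) occurred in 2, Hoxa2 and one of the Hoxd11 starts, and in 2.82% of all windows. Absence says only that these letters are not in these 250 bases.

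Of the 46 other rows that lie inside the 4 clusters, mostly noncoding RNAs, 14 had reads and 2 were tested. Hoxb5os, which runs antisense to Hoxb5, was higher in EpCAM+ cells, and it had passed the filter on low counts through its EpCAM+ libraries. It measured 2.42, 1.93, 2.46 and 1.95 CPM in EpCAM+ libraries and 1.00, 0.67, 0.07 and 0.59 CPM in EpCAM- libraries, without overlap (log2 fold change 1.89, SE 0.47, adjusted p = 0.0088 by edgeR, called with each library left out). Hoxb5 shares 3.59% of its exon bases with Hoxb5os. Hoxaas3, which overlaps Hoxa3 and Hoxa7, measured 1.70 ± 0.174 and 1.86 ± 0.656 CPM and did not pass the test (log2 fold change -0.12, adjusted p = 0.751 by edgeR).

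Over the 4 clusters together, the protein-coding neighbours outside them were called in both directions. No Hox gene of the Hoxc or Hoxd cluster was tested, so only neighbours of Hoxa and Hoxb can be set beside tested Hox genes. Of the 5 nearest on each side of each cluster, 31 of 40 were tested, with 8 higher and 12 lower in EpCAM+ cells. The shares over all tested genes were 21.8% higher and 20.8% lower. Beside the Hoxa cluster 3 of 7 tested neighbours were higher and 2 lower, and beside Hoxb 3 of 8 were higher and 2 lower. The nearest tested neighbour was Skap2 for Hoxa and Skap1 for Hoxb. Both were higher in EpCAM+ cells without overlap (log2 fold changes 0.55 and 1.88, adjusted p = 0.0087 and 0.0049 by edgeR). Around the Hoxd cluster, which had no reads, 4 of 8 were lower and none higher by edgeR (1 higher at an unadjusted p under 0.05, none with DESeq2). Among the lower ones were Lnpk (24.2 ± 2.64 CPM in EpCAM- and 16.9 ± 1.36 in EpCAM+ libraries) and Mtx2 (123 ± 10.9 and 93.7 ± 7.09 CPM), on either side of the cluster. Around Hoxc, Calcoco1 was higher by 0.79 on the log2 scale and Copz1 fell by 0.48. Around Hoxb, Copz2 was higher by 1.21 while Atp5g1 fell by 0.89 and Snf8 fell by 0.51.

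The TALE homeodomain proteins (MEIS, PBX, PKNOX and TGIF) and the PBX-binding protein Pbxip1 are the partners of Hox proteins on DNA or their antagonists. Of 12 such genes 10 were tested, with 4 higher in EpCAM+ cells and none lower by edgeR (1 lower at an unadjusted p under 0.05, none with DESeq2). That share was close to the 42.6% called in either direction over all tested genes. Meis3 passed the filter on low counts only through its EpCAM+ libraries, and 3 genes of the list were called when 10 reads were required in every library. Meis1, the partner of Hoxa9, was at 248, 235, 281 and 226 CPM in EpCAM+ libraries and at 139, 92.9, 104 and 95.8 CPM in EpCAM- libraries. The fractions were far apart, at 247 ± 24.3 and 108 ± 21.3 CPM (log2 fold change 1.20, SE 0.13, adjusted p = 2.1e-04 by edgeR). Pbxip1, which binds PBX proteins, rose by 0.70 on the log2 scale. Meis3 rose by 2.90 on the log2 scale, but from only 0.253 ± 0.180 CPM in EpCAM- libraries to 1.97 ± 0.418 CPM.

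The other TALE genes did not pass the test. Pknox1, a cofactor that competes with MEIS proteins, was at 39.2 ± 0.939 and 38.2 ± 2.48 CPM in EpCAM+ and EpCAM- libraries. Tgif1 and Tgif2, repressors of the same superclass, had log2 fold changes of 0.14 and 0.22. Pbx2 (log2 fold change 0.37, adjusted p = 0.0913), Pbx3 (0.59, adjusted p = 0.0929) and Pbx4 (-0.27, adjusted p = 0.0958) lay nearer to the threshold. With the replicate number as a block, Pbx2 (adjusted p = 0.0420) and Pbx4 (adjusted p = 0.0462) passed it. Pbx2 also passed with upper-quartile scaling (adjusted p = 0.0455). Pbx3 passed without EpCAM- replicate 1 (adjusted p = 0.0400) and Pbx4 without EpCAM+ replicate 2 (adjusted p = 0.0390). Meis2 and Pknox2 were below the filter.

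**Figure D4:**
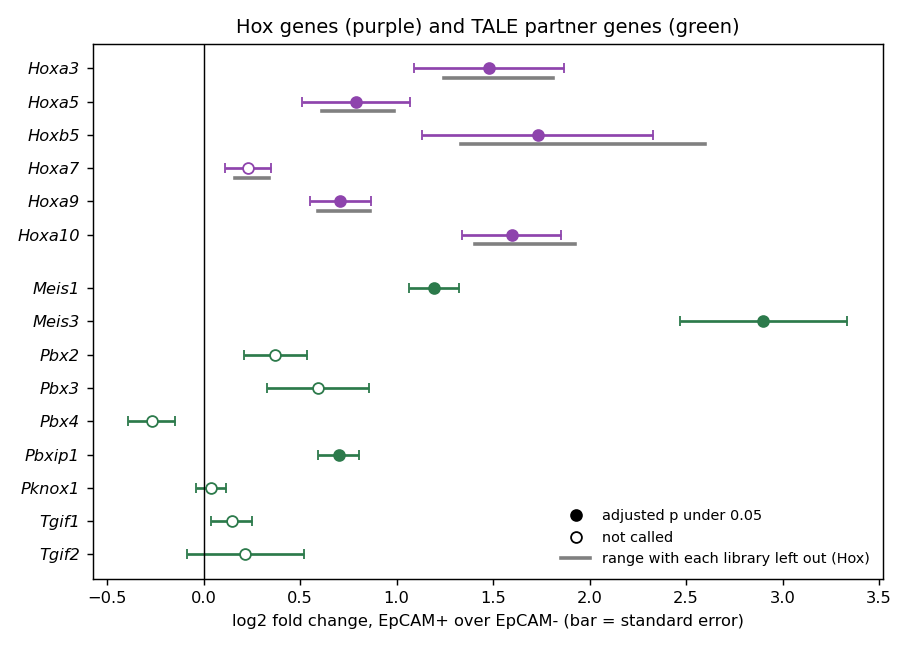
Log2 fold change of EpCAM+ over EpCAM- cells (x axis) with its standard error for the 6 tested Hox genes and 9 of the 10 tested TALE genes; filled points passed an adjusted p of 0.05, open points did not, and grey bars span the Hox estimates with each library left out. Hoxa3, Hoxa10, Hoxb5, Meis1 and Meis3 lie above 1, and Hoxa7 lies nearest to 0 among the Hox genes.

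Of 16 trithorax-side genes, all tested, 2 were higher (Kmt2a and Kdm6b) and 2 lower (Ash2l and Wdr5) in EpCAM+ cells, a smaller share than the 42.6% called over all tested genes. The list's median log2 fold change was -0.06 against 0.02 over all tested genes. Kmt2a, the MLL methyltransferase that keeps Hoxa9 active, was at 47.9 ± 5.96 CPM in EpCAM+ and 34.0 ± 6.21 CPM in EpCAM- libraries (log2 fold change 0.49, SE 0.14, adjusted p = 0.0155 by edgeR). Its complex members Ash2l and Wdr5 fell by 0.39 and fell by 0.22 on the log2 scale. Wdr5 did not pass with upper-quartile scaling (adjusted p = 0.134) or library totals (0.170), nor without EpCAM+ replicate 3 (0.0616), EpCAM+ replicate 4 (0.0678) or EpCAM- replicate 4 (0.0580). With the replicate number as a block, 8 genes of the list were called instead of 4.

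Of 23 polycomb genes, all tested, 6 were higher and 2 lower in EpCAM+ cells, again a smaller share than over all tested genes, with a median log2 fold change of 0.11. The 3 with the smallest adjusted p were Ezh1, a histone methyltransferase of stem cells (35.6 ± 3.37 and 24.7 ± 2.16 CPM), Phc1 (20.7 ± 2.58 and 12.2 ± 2.23 CPM) and Cbx6 (56.4 ± 6.57 and 35.3 ± 6.77 CPM). Their log2 fold changes were 0.53, 0.76 and 0.68. The 2 lower genes were Ezh2, the paralog of Ezh1 used by dividing cells, and Rbbp4. The caudal genes Cdx1, Cdx2 and Cdx4, which switch on Hox clusters in the embryo, were not tested, and their summed level was at most 0.195 CPM in a library.

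Of 15 genes taken from textbook knowledge as targets of HOXA9 and MEIS1, 14 were tested, with 8 higher and 3 lower in EpCAM+ cells and a median log2 fold change of 0.39. Over all tested genes, 21.8% were called higher and 20.8% lower. Trib2, a pseudokinase that promotes leukemia, went furthest and in the opposite direction to Hoxa9 and Meis1. It measured 0.59, 1.64, 2.74 and 2.01 CPM in EpCAM+ libraries and 17.6, 14.4, 40.2 and 43.9 CPM in EpCAM- libraries (log2 fold change -4.03, SE 0.47, adjusted p = 2.6e-04 by edgeR). Erg, a stem cell transcription factor, was at 34.3 ± 3.34 and 19.4 ± 3.39 CPM (log2 fold change 0.82). Id2, an inhibitor of E proteins, was higher by 3.63 on the log2 scale, but its EpCAM+ libraries spread from 34.8 to 293 CPM.

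Of 12 homeobox genes outside the Hox clusters, 10 were tested, and 3 were higher and 2 lower, beside 42.6% of all tested genes called in either direction. Nkx2-3 was at 22.3 ± 6.72 and 3.52 ± 3.35 CPM (log2 fold change 2.63, or 3.57 without EpCAM- replicate 1), Zfhx3 at 9.66 ± 1.04 and 4.36 ± 0.981 CPM (1.14), and Zeb2, the paralog of the deleted Zeb1, at 51.8 ± 2.55 and 78.8 ± 5.74 CPM (-0.60).

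Other genes also differed between the fractions, some in the direction of the Hox genes and some in the opposite direction. Epcam was at 161 to 234 CPM in EpCAM+ and 1.25 to 8.99 CPM in EpCAM- libraries, the highest of these being replicate 1. Reads on Zeb1 remained in both fractions, at 14.8 to 23.7 and 9.49 to 14.0 CPM, and were higher in EpCAM+ cells without overlap (log2 fold change 0.72, SE 0.17, adjusted p = 0.0080 by edgeR). As a background for the marker counts that follow, 21.8% of all tested genes were called higher and 20.8% lower. Of 10 stem cell markers, 9 were higher and none lower in EpCAM+ cells by edgeR (none at an unadjusted p under 0.05 or with DESeq2 either), and their summed level was 719 to 994 CPM in EpCAM+ and 259 to 459 CPM in EpCAM- libraries. Summed neutrophil markers were at 1097 to 1853 CPM and 11942 to 18563 CPM (4 of 9 lower in EpCAM+ cells), erythroid markers at 93.7 to 285 CPM and 2026 to 6885 CPM (6 of 7 lower, 1 higher), and mast cell and basophil markers at 68.3 to 91.2 CPM and 231 to 479 CPM (3 of 5 lower). Within the EpCAM- fraction the erythroid sums were highest in replicates 3 and 4 (5081 and 6885 CPM), where Hoxa5, Hoxa7 and Hoxa9 were lowest, while Hoxa10 in replicate 3 was not below replicate 2 and Hoxb5 was lowest in replicate 2. Plasma cell markers reached 3978 CPM in EpCAM+ replicate 1, against 389 to 674 CPM in the other EpCAM+ libraries. In EpCAM- libraries they were at 171 to 259 CPM, and 3 of the 5 tested (of 8) were higher in EpCAM+ cells. Dendritic cell markers were at 18.0 to 225 CPM and 15.8 to 22.1 CPM, with 4 of the 6 tested (of 8) higher and 1 lower. B cell markers were at 71.8 to 121 CPM and 46.6 to 79.0 CPM, with Pax5 at 0 reads in each library. Of the genes behind the sort, Kit and Ly6a (SCA-1) were present in all libraries and higher in EpCAM+ cells (log2 fold changes 0.45 and 2.28), although Kit passed in only 3 of the 8 fits that left out a library, and 5 lineage marker genes summed to 4.54 to 5.49 CPM and 2.87 to 6.18 CPM. The part of these cell type markers in the Hox differences was not tested. Without EpCAM+ replicate 1, Hoxa3, Hoxa9 and Hoxa10 were called, and without EpCAM- replicate 1 the same 5 Hox genes were called as with all libraries.

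**Figure D5:**
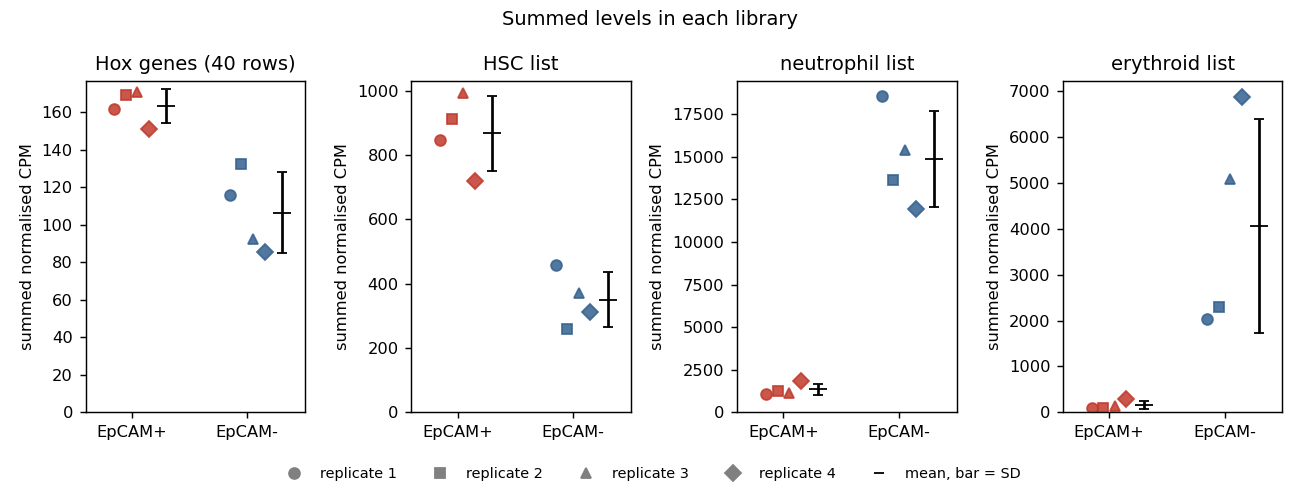
Summed normalised CPM (y axes, from 0, each panel on its own range) of the 40 Hox rows and of the marker lists for hematopoietic stem cells (HSC), neutrophils and erythroid cells, 1 point per library, beside the mean and SD of each fraction (n = 4). Hox and stem cell sums are higher in every EpCAM+ library, and the neutrophil and erythroid sums are higher in every EpCAM- library.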

How the data were processed

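Cells were sorted as EpCAM+ or EpCAM- LSK cells, RNA was amplified with SMART-Seq v4, and libraries built from 1 ng cDNA were sequenced as 150-base pairs. Per the submitters' processing notes the authors used STAR 2.6.1d, featureCounts 1.5.0-p3, DESeq2 1.20.0 and GRCm38.p6. The deposited table holds whole-number read counts per gene without normalization, and FPKM that the authors computed from them, used here only for levels. Columns with fold changes and p-values of the authors' comparisons were left out. The annotation release and the strand setting are not given in the sources used here. Of 39 Hox rows found in GENCODE M21, 38 had the same coordinates there.

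Counts of all genes were analyzed with R 4.3.3 and edgeR 4.0.16 (filterByExpr by fraction, TMM, quasi-likelihood F test, two-sided, Benjamini-Hochberg, threshold 0.05), and figures with Python 3.11.15 and matplotlib 3.10.9. CPM are TMM-normalised, and standard errors come from the F statistic. Intervals and floors (3 counts) cover counting error only. Ratios between genes were compared with exact permutation tests. The pipeline was tested on simulated data. The labels give 4 mice per genotype without tying a sample to a mouse, so p-values measure only the spread between these samples, which may be technical. Same-numbered libraries of the fractions are paired by their values: their deviations from the fraction means correlated ( across genes 0.205 to 0.356 in 4 pairs), and the 12 other pairs gave -0.216 to 0.0396, while what the numbers share is not stated in the labels. The number as a block was an alternative. Other alternatives were DESeq2 1.42.0, scaling by library totals, upper quartiles or DESeq2's size factors, other filters, protein-coding genes only and leaving out each library.

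Genes named were the Hox genes, the tested TALE genes, up to 3 called genes with the smallest adjusted p per other list, and up to 8 called rows inside or beside the clusters. Kdm6b, Ezh2, Rbbp4, Pax5, Skap1, Skap2 and the caudal genes were named after their values were seen. The members, gene lists and tests were chosen with earlier results of these data known. Some genes and sequences are not reported here.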

Additional observations from a re-analysis of the deposited data

Results flagged for a closer look

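In 7 of the 98 groups of 4 libraries examined for the genes named here, 1 library stood apart from the other 3 by more than Dixon's 95% criterion for 4 values, and chance alone does so in about 1 group in 20. One was a Hox gene: Hoxb2 was at 1.19 CPM in EpCAM- replicate 1 and at 0.137 to 0.148 CPM in the other 3 EpCAM- libraries. The same library stood apart for Id2 (23.6 CPM against 9.55 to 10.6) and Nkx2-3 (8.49 CPM against 1.18 to 2.29). EpCAM- replicate 4 stood apart for Wdr5 (141 CPM against 127 to 128) and Erg (14.3 CPM against 20.6 to 21.8), and EpCAM- replicate 2 for Zeb2 (87.3 CPM against 75.3 to 77.0). In the EpCAM+ fraction, Hlf was at 165 CPM in replicate 3 and at 109 to 112 CPM in the others.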

How the results depend on the processing

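Hoxa3, Hoxa9 and Hoxa10 were called in each fit that tested them. The count of Hox genes called was 5 with DESeq2, DESeq2's size factors, upper-quartile scaling, library totals, protein-coding genes only and the replicate block, always the same 5 genes. It was 3 with a filter of 1 read in any library (20 rows tested) and 3 with a filter of 10 reads in every library, under which Hoxa3 and Hoxb5 were not tested, and it ranged from 3 to 6 with 1 library left out. The replicate block called 6818 genes in all against 5779, and beside the block values given for Pbx2, Pbx4 and the trithorax list (8 called against 4) it changed no other call of a named Hox or TALE gene. With 1 library left out, the trithorax count ranged from 2 to 5 and the count of other rows inside the clusters from 1 to 2, and that count was 0 with the filter of 10 reads in every library, which left Hoxb5os untested. Pknox1 changed sign without EpCAM- replicate 2 (log2 fold change -0.011, against up to 0.066 without another library), and Hoxaas3 without EpCAM- replicate 4 (0.11, against as low as -0.29 without another library), neither called in any fit. Of all calls, 51.2% were higher in EpCAM+ cells in the fit reported here, 63.6% with upper-quartile scaling and 62.7% with library totals, which moved the median of all genes from 0.02 to 0.11 on the log2 scale, and the cause was not tested. Read depth limits the 14 Hox rows below the filter, 8 of which had at most 5 reads in every library.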
